A study of Mus musculus with 4 samples.

Results

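Genes of plasminogen activation and of the start of coagulation were followed in astrocyte-enriched cultures (AECs) that were deprived of oxygen and glucose. They were taken by name: *Plau*, *Plat*, *Plaur*, *Serpine2*, *Serpinb2*, *F3* and *Thbd*, and every non-control spot that the array assigns to one of these names was taken. They are 7 of the 29676 gene names on the array and are read by 8 probes, 2 for *F3* and 1 for each of the others. The RefSeq accession of all 8 probes matched the same symbol in the reference table of GRCm38.p6.

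AECs are mixed glial cultures from the cerebral cortex of newborn ICR mice, prepared from pups taken at random without regard to sex, in which PLX3397, a blocker of the CSF1 receptor that microglia need, had been used to remove these cells. All cultures shared this treatment. Both groups were grown in 6-well plates, and total RNA from 2 untreated cultures and from 2 cultures kept in medium without glucose under hypoxia for 15 h (oxygen-glucose deprivation, OGD) was labeled with Cy3 and hybridized to 1 array each. No culture lacked only glucose or only oxygen, so that their parts cannot be told apart. The methods describe wells from independent cultures of different pups, while the labels only number the samples, so that p-values measure the spread between these samples, which may be technical.

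Plasmin, the protease that dissolves fibrin and cuts matrix proteins, is made from plasminogen by 2 activators, urokinase (*Plau*) and tissue-type plasminogen activator (*Plat*). Urokinase acts at the cell surface, where the receptor encoded by *Plaur* holds it, and serpins such as those encoded by *Serpine2* and *Serpinb2* block the activators. Coagulation is started by tissue factor (*F3*), which in brain is known from astrocytes around vessels, and thrombomodulin (*Thbd*) turns thrombin from a clotting enzyme into an activator of the anticoagulant protein C.

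All 4 arrays shared a slide and a scan. Their 75th percentile of processed signal was 2135 and 2164 in untreated cultures against 887 and 776 after OGD. The processed signal, a spot intensity from which the image software had removed spatial trends, was therefore compared on the log2 scale after subtraction of each array's 75th percentile, called the normalized log2 signal here, so that each change is relative to that percentile. In this scale the median over the 28254 probes tested changed by 0.18. On 9 spiked-in control probes, which read RNA added during labeling, the mean change was −0.085. Scaling on them lowers every log2 fold change by 1.29, to a median of −1.11. The changes of these 9 probes ranged from −0.75 to 0.28, a disagreement that p-values on this scale do not take into account. Small changes with spike-in scaling are therefore uncertain in direction. Directions of the members are given below for both scales. Of the cell type markers looked at, all 8 for astrocytes, *Gfap*, *Aqp4* and *Slc1a3* among them, were well above background on all 4 arrays, with a summed processed signal of 229340 and 223693 in untreated cultures and 127068 and 115950 after OGD. Sums and calls of markers are those of each gene's brightest probe, by which 5 of these were higher and 1 lower in limma, while another *Aldh1l1* probe was lower. The 9 markers of microglia and macrophages summed to 4978 and 4427 against 5986 and 5071, of which *Cd68* made up 4301 and 3778 after OGD, and 3 passed the test higher and 1 lower, while *C1qa* lay between 1.54 and 7.54. Among 8 endothelial markers, *Cldn5*, *Tek* and *Tie1* were not well above background on any array, and the sum was 4244 and 4542 against 1702 and 1295, with *Esam* and *Kdr* lower in limma, while a dimmer probe of *Kdr* was higher, at a log2 fold change of 1.11, as was one of *Flt1*, at 3.58, with a processed signal of 132 and 137 against 682 and 568. Of the 8 markers of meningeal fibroblasts and pericytes (2 higher and 2 lower in limma) *Col1a1* had no usable spot on 1 OGD array, and the other 7 summed to 32764 and 28981 against 10712 and 7635; the 8 of the oligodendrocyte lineage came to 52112 and 53257 against 17556 and 14323 (3 higher, 4 lower), the 6 of neurons to 66078 and 62588 against 27265 and 26343 (2 higher, 2 lower) and the 5 of mesothelial and epithelial cells to 155 and 136 against 120 and 91 (2 higher). The part of these cell types in the results below was not tested, and in such bulk RNA fewer cells of a type and less RNA per cell cannot be told apart.

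After OGD the transcripts of the urokinase receptor, of the inhibitor *Serpinb2*, of tissue factor and of *Thbd* rose by over 2-fold relative to the 75th percentile, and both activators and *Serpine2* by less than 2-fold. On each array all 8 probes were well above background, none of their spots was marked as an outlier (0) or saturated (0), and all 8 were higher after OGD past an adjusted p of 0.05 in limma. The same limit was passed by 65% of all probes tested, 37.9% of all probes being higher and 27.1% lower. A rise of over 2-fold past that limit was seen for 5 of the 8 probes, those of *Plaur*, *Serpinb2*, *F3* and *Thbd*, against 13.9% of all probes in this direction and 28.7% in either, and no member came near the 10-fold limit of the study, which 1.33% of all probes passed, 0.811% higher and 0.524% lower. On the spike-in scale 3 of the 8 probes were higher and 2 lower past the adjusted p in limma, against 4.47% higher and 81.9% lower of all probes tested. The share of all called probes that were higher was 58.3% with the 75th percentile, 76.8% with normexp background correction and 5.17% with spike-in scaling.

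**Figure D1:**
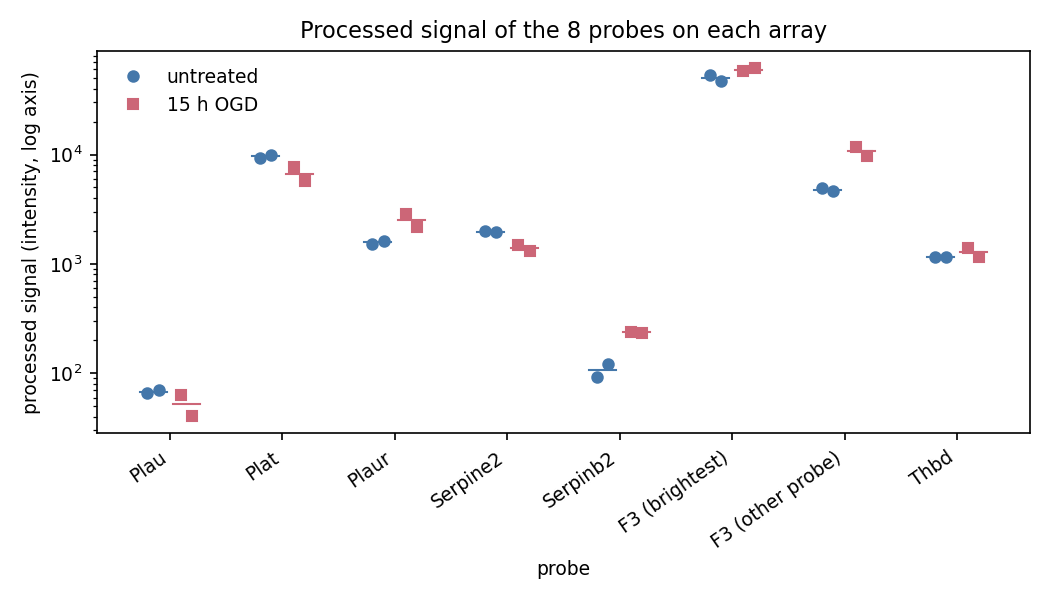
Processed signal (intensity, log axis) of each member probe on each array, circles for the 2 untreated and squares for the 2 OGD arrays, with lines at the group means. Without any scaling, both OGD arrays lie above both untreated arrays for 5 probes (Plaur, Serpinb2, both F3 probes and Thbd) and below them for 3 (Plau, Plat and Serpine2), against 5.45% of all probes tested that lie above and 89.7% that lie below.

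Among the activators, the *Plau* probe (A_52_P302433, NM_008873, chr14:21662242-21662301 of mm9) was dim, with a processed signal of 65.5 and 69.7 in untreated cultures and 63.5 and 40.6 after OGD. Unscaled, *Plau* was thus slightly lower after OGD, with 1 of the arrays close to the untreated ones. Relative to the 75th percentile its normalized log2 signal went from −4.99 ± 0.050 (SD, n = 2) to −4.03 ± 0.32 (SD, n = 2), and the groups did not overlap, as was the case for 84.7% of all probes. The change was 0.96 ± 0.18 (SE) in log2 units (limma adjusted p = 0.0139), or 1.95-fold. With the methods' t-test the adjusted p was 0.0901, and in limma it was 0.0769 without untreated replicate 1 and 0.0701 without untreated replicate 2, in a range from 3.51e-05 to 0.170 over all alternatives. With spike-in scaling the log2 fold change of *Plau* was −0.33.

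*Plat*, read by A_52_P409833 (NM_008872, chr8:23892531-23892590 of mm9), had a processed signal of 9375 and 9857 in untreated cultures and of 7696 and 5714 after OGD. Both OGD arrays were below both untreated arrays before scaling and above them afterwards, with a normalized log2 signal of 2.13 and 2.19 (SD 0.037, n = 2) against 3.12 and 2.88 (SD 0.17, n = 2). The change was 0.84 ± 0.11 (SE) in log2 units (limma adjusted p = 0.00599). It lost the call without untreated replicate 1 (limma adjusted p = 0.0505, in a range from 0.000184 to 0.0505 over all alternatives), came to 0.54 with quantile normalization and turned to −0.45 with spike-in scaling (limma adjusted p = 0.0314).

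The probe of the receptor changed more than the dim probe of its ligand. *Plaur* (probe A_52_P681310, NM_011113, chr7:25260569-25260628 of mm9) was at a processed signal of 1536 and 1623 in untreated cultures and at 2842 and 2190 after OGD. It was higher on both OGD arrays even without scaling. On the normalized log2 scale it moved from −0.45 ± 0.042 to 1.59 ± 0.13 (SD, n = 2 in each group), which amounts to 2.03 ± 0.10 (SE) in log2 units, or 4.09-fold (limma adjusted p = 0.000943). With spike-in scaling *Plaur* was still higher, by 0.75 (limma adjusted p = 0.00425). The difference of 2 probes within each array does not depend on what is subtracted from the whole array, be it the 75th percentile, the median or the spike-in level, though quantile normalization and normexp can change it. The log2 signal of *Plau* minus that of *Plaur* was −4.55 and −4.54 in untreated cultures and −5.48 and −5.75 after OGD. The change of *Plaur* thus exceeded that of *Plau* by 1.07 on the log2 scale, more than the spread within either group. This was not particular to the ligand: *Plat* minus *Plaur* changed by −1.20 and *Plaur* minus *Serpine2* by 1.16. Each of these pairs had p = 0.333 by exact permutation (two-sided).

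The promoters of *Plaur*, *Serpinb2* and *F3* are shown because a short sequence was matched in each. Windows of 250 bases before a RefSeq start were at hand for *Plaur*, *Serpine2*, *Serpinb2* (2 start sites) and *F3*, on GRCm38.p6. They are printed 5′ to 3′ on the strand of the gene, with matches to TGANTCA and to TATAAA in capitals. TGANTCA is a loose form of the binding sequence of AP-1 factors, which has G or C at the open position N.
Plaur, chr7:24462233-24462482, plus strand: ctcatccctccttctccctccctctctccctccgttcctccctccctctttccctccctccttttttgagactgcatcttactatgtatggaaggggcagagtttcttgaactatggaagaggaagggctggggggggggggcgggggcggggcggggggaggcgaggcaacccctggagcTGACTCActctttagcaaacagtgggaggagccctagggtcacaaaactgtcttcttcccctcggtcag
Serpinb2, chr1:107511173-107511422, plus strand: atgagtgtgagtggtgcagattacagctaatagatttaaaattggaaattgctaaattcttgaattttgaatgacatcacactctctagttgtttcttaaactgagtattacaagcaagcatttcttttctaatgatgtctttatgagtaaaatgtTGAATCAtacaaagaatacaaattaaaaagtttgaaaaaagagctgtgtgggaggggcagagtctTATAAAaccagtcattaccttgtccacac
F3, chr3:121723287-121723536, plus strand: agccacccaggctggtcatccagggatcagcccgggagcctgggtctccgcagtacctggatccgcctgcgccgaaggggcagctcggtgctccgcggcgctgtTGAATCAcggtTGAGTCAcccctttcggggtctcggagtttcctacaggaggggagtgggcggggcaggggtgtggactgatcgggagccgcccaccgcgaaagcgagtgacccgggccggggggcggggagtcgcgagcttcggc

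TGANTCA was matched once before *Plaur*, from position −69, as TGACTCA, and once before *Serpinb2*, as TGAATCA from −94. In *F3* there were 2 matches, TGAATCA from −146 and TGAGTCA from −135, and both windows of *Serpinb2* hold the same match, the second start lying downstream of the first. TGAATCA has A at the open position and so is not the stricter AP-1 sequence. TGANTCA was not found in the window of *Serpine2*. Of all 32851 promoter windows of this length, 6.75% hold this motif on either strand. TATAAA, from −29 of *Serpinb2*, is held by 12.4% of the windows. Also searched on both strands were ACGTG and GCGTG, the cores of the hypoxia response element, TGACGTCA, bound by CREB and ATF factors, and AAAGGTCA, bound by NR4A receptors, without a match in any of these windows. The GC box GGGCGG, in 32.7% of all windows and not in capitals here, was matched in those of *Plaur*, *Serpine2* and *F3*, in part by overlapping copies. A match is a run of letters and was not tested for binding.

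Of the inhibitors, *Serpinb2*, which encodes plasminogen activator inhibitor type 2, had the largest increase of the members with the brightest probe of each gene. Its probe (A_55_P2004867, NM_011111, chr1:109422046-109422105 of mm9) gave a processed signal of 92.5 and 121 in untreated cultures and of 238 and 234 after OGD. The probe was dim on every array, with the untreated replicates further apart than those after OGD. On the normalized log2 scale it moved from −4.35 ± 0.26 to −1.81 ± 0.12 (SD, n = 2 in each group), which amounts to 2.53 ± 0.16 (SE) in log2 units, or 5.78-fold (limma adjusted p = 0.00134). With spike-in scaling the increase of *Serpinb2* was 1.24 (limma adjusted p = 0.00198), and it kept its direction and the call in every alternative tried. Over the 4 arrays, with each probe centered on its mean, the probes of other named genes most like it were those of *Sowahb*, *Mapk8*, *Litaf*, *Cmtm4* and *Rasal2*, at a Euclidean distance between 0.056 and 0.14 in normalized log2 signal. The probe of *Sowahb*, the nearest, was at a processed signal of 5.11 and 6.69 in untreated cultures and not well above background on 1 of these arrays, so that its distance and change are uncertain. The log2 fold changes of the other 4 lay between 2.45 and 2.49.

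*Serpine2* encodes glia-derived nexin, a serpin released by glial cells that blocks thrombin as well as urokinase. Its probe (A_51_P268094, NM_009255, chr1:79793476-79796093 of mm9) joins sequence that lies 2618 bases apart from end to end in the genome and so bridges at least 1 intron, which is why it is shown.
Serpine2, A_51_P268094: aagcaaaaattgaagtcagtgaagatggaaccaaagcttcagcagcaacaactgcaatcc
F3, A_65_P08971: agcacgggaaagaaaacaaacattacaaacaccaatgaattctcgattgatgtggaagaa

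The second sequence is the *F3* probe described below, which spans 738 bases of the genome in the same way. The processed signal of *Serpine2* was 1985 and 1955 in untreated cultures and 1475 and 1311 after OGD, lower on both OGD arrays before scaling. Normalized, *Serpine2* went up from −0.13 ± 0.029 to 0.74 ± 0.016 (SD, n = 2 in each group), which amounts to 0.87 ± 0.076 (SE) in log2 units (limma adjusted p = 0.00219). It turned to −0.42 with spike-in scaling (limma adjusted p = 0.0133). Within arrays, *Plat* minus *Serpine2* was 2.24 and 2.33 in untreated cultures and 2.38 and 2.12 after OGD on the log2 scale, so that this activator and this inhibitor could not be told apart in their change.

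Tissue factor was read by 2 probes that differed in the size of the change. The brighter one (A_55_P1971889, NM_010171, chr3:121437717-121437776 of mm9) had a processed signal of 53105 and 47067 in untreated cultures and of 57937 and 61630 after OGD. The other (A_65_P08971, NM_010171, chr3:121434609-121435346 of mm9) had 4924 and 4600 in untreated cultures against 11660 and 9659 after OGD. Both were higher on both OGD arrays without scaling. *F3* changed by 1.63 ± 0.14 (SE) on the log2 scale with the brighter probe (limma adjusted p = 0.00223) and by 2.53 ± 0.090 (SE), or 5.78-fold, with the other (limma adjusted p = 0.000751). The brighter minus the other probe was 3.43 and 3.36 in untreated cultures but 2.31 and 2.67 after OGD (log2 units), a difference of 0.90 between the changes that exceeds the spread within groups, and its cause was not tested. With quantile normalization the brighter *F3* probe changed by 0.80 and the other by 2.24, and with spike-in scaling by 0.34 (limma adjusted p = 0.0578, in a range from 2.77e-05 to 0.0578 over all alternatives) and by 1.24 (limma adjusted p = 0.000357).

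*Thbd* (probe A_51_P291417, NM_009378, chr2:148230235-148230294 of mm9) had a processed signal of 1152 and 1158 in untreated cultures and of 1407 and 1164 after OGD. Without scaling 1 of the OGD arrays was thus barely above the untreated ones. On the normalized log2 scale it moved from −0.90 ± 0.0086 to 0.63 ± 0.058 (SD, n = 2 in each group), which amounts to 1.52 ± 0.080 (SE) in log2 units, or 2.87-fold (limma adjusted p = 0.00100). With spike-in scaling the change was 0.23 and no longer passed (limma adjusted p = 0.103, in a range from 1.49e-05 to 0.103 over all alternatives).

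**Figure D2:**
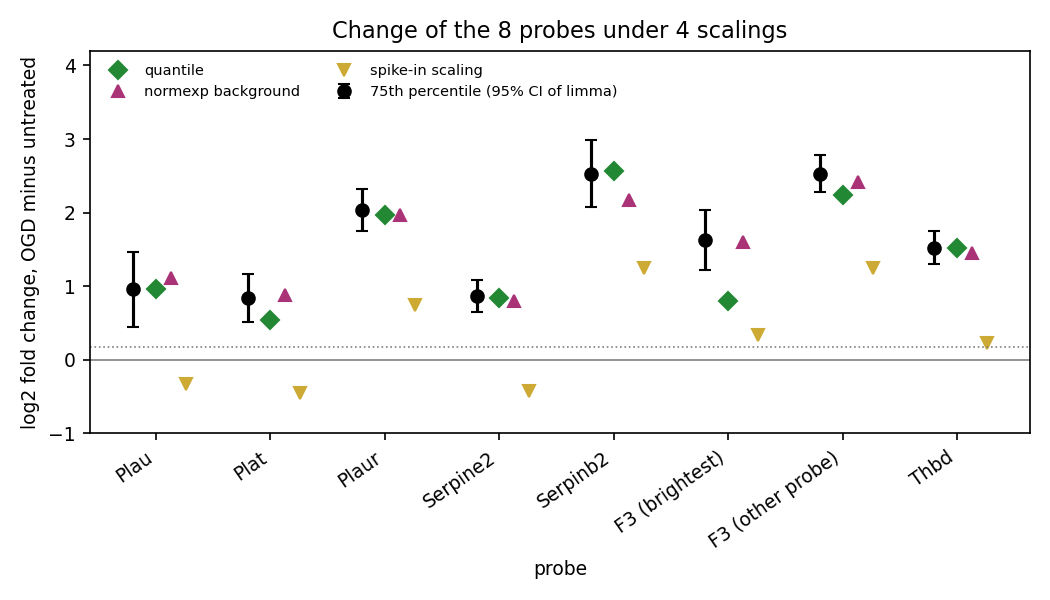
Log2 fold change (OGD minus untreated) of the 8 member probes, with the 95% confidence interval of limma for 75th-percentile scaling and single points for the other settings. The solid line marks no change and the dotted line the median of all probes (0.18). Under spike-in scaling Plau, Plat and Serpine2 lie below 0, while Plaur, Serpinb2 and both F3 probes stay above it, as does Thbd at 0.23.

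In order of change, *Serpinb2* (2.53 on the log2 scale) was followed by *Plaur* (2.03), *F3* with its brighter probe (1.63), *Thbd* (1.52), *Plau* (0.96), *Serpine2* (0.87) and *Plat* (0.84). With the mean over its probes *F3* was at 2.08 and came before *Plaur*. Of 28 pairs of probes compared within arrays, 4 overlapped between the groups and so did not differ beyond their spread. They were *Plau* with *Serpine2*, *Plat* with *Serpine2*, *F3* with *Thbd*, and *Serpinb2* with the second *F3* probe. The share for pairs drawn from all probes was not computed, while 84.7% of single probes did not overlap on the normalized scale. Some of the remaining pairs were barely apart. *Plau* minus *Plat*, for example, was −7.162 and −7.143 in untreated cultures and −6.921 and −7.138 after OGD. With quantile normalization the brighter *F3* probe, at 0.80, came below *Thbd*, at 1.53, and below *Plau*, at 0.97, and *Serpine2*, at 0.84. Each of the pairs that did not overlap had p = 0.333 by exact permutation (two-sided), the limit of a design with 2 arrays against 2, or 0.388 adjusted over the pairs. Single probes also had p = 0.333 by exact permutation (two-sided). Among all 28254 probes, the change of *Plat*, *Serpine2* and *Plau* was larger than that of 80.1%, 81.4% and 84.4%, that of *Thbd* and the brighter *F3* probe than that of 94.3% and 95.1%, that of *Plaur* than that of 96.9% and that of *Serpinb2* than that of 98.1%. The median of the 7 genes was 1.52, against 0.16 over the 21061 genes tested.

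**Figure D3:**
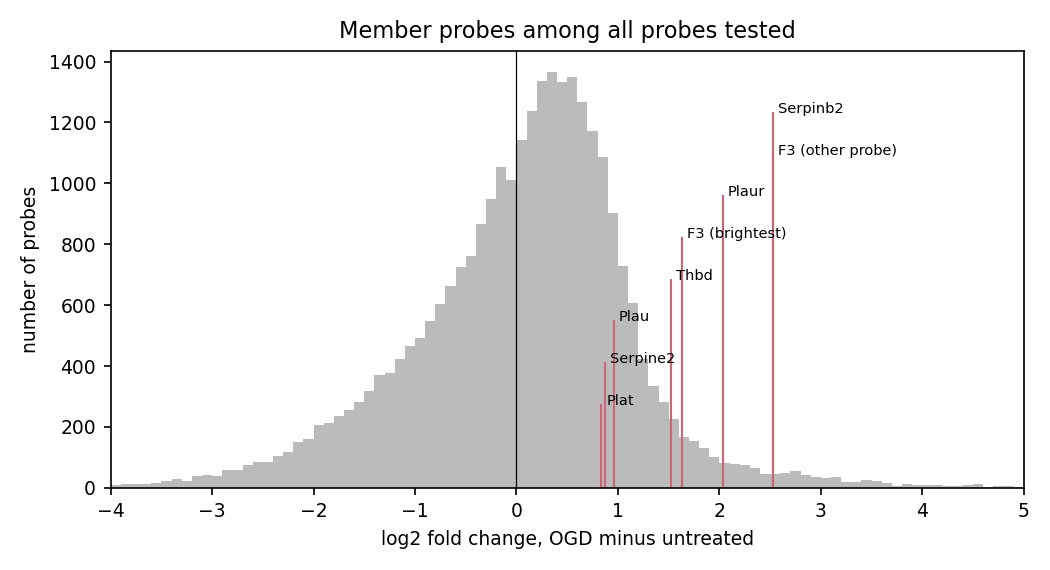
Histogram of the log2 fold change (OGD minus untreated) of all 28254 probes tested, shown from −4 to 5, with the member probes as vertical lines whose heights only separate the labels. All member lines lie to the right of 0, with Plat, Serpine2 and Plau within the bulk of the probes and Serpinb2 and the second F3 probe in its upper tail.

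Beyond these members, 47 further genes of fibrinolysis and coagulation were looked at by role, and 35 of them had a probe bright enough for the test. Of the 35, 20 were higher and 3 lower past the adjusted p in limma, with a median log2 fold change of 0.65, where 37.1% of all genes were higher and 27.8% lower. With spike-in scaling 2 were higher (*Vldlr* and *F2rl1*) and 26 lower, with a median of −0.63, where 4.47% of all probes were higher and 81.9% lower, with a median of −1.11. Plasminogen itself (*Plg*) was not well above background on any array, with a processed signal between 2.50 and 4.81, and so had no measured change.

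Of the 6 further inhibitors in the list 4 were tested and 2 were higher, *A2m*, a broad protease trap, at a log2 fold change of 1.04, and *Cpb2*, which protects fibrin from lysis, at 2.10. *Cpb2* was dim and its OGD arrays lay far apart, with a processed signal of 23.5 and 21.5 in untreated cultures but 22.8 and 60.7 after OGD (limma adjusted p = 0.0394). Its call was lost with the methods' t-test, with no filter, with spike-in scaling and without either untreated array, and its value was 2.90 without OGD replicate 1 and 1.30 without OGD replicate 2. *Serpini1*, encoding neuroserpin, an inhibitor of tissue-type activator, was at −0.080 with its brightest probe (95% confidence interval −0.29 to 0.13) and at 1.14 with the other (limma adjusted p = 0.00226), a rise smaller than the 1.29 by which spike-in scaling lowers each value. With spike-in scaling *A2m* was at −0.25, *Cpb2* at 0.81 and the brightest *Serpini1* probe at −1.37.

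Against 37.1% of all genes higher and 27.8% lower, 4 of 7 receptors were higher and 1 lower. The 7 were receptors of plasminogen, of the activators or of their complexes with inhibitors. *Vldlr*, a lipoprotein receptor that takes up such complexes, was at a processed signal of 3882 and 4157 in untreated cultures and of 12775 and 10357 after OGD. It changed by 2.89 in log2 units with the brighter probe and by 2.40 with the other (limma adjusted p = 0.000729 and 0.000775). *Lrp1*, which also clears them, was at 0.20 with its brightest probe (95% confidence interval −0.054 to 0.46) and at 1.56 with a dim one (limma adjusted p = 0.00109). The lower gene was *Plgrkt*, a plasminogen receptor, at −0.40, a call lost with the methods' t-test and without either untreated array or OGD replicate 2. With spike-in scaling *Vldlr* was at 1.60, *Plgrkt* at −1.69 and the brightest *Lrp1* probe at −1.09. Of the 7 receptors 1 was then higher and 6 lower, where 4.47% of all probes were higher and 81.9% lower. *Anxa2* (0.78) and *Eno1* (0.72), also among the higher receptors, came to −0.17 and −0.035 with quantile normalization and lost their calls. Among the 6 genes of the zymogen and contact activation group 4 were tested, with *St14* higher, at 0.40 but −0.89 with spike-in scaling, and *Klkb1*, encoding plasma prekallikrein, lower, at −1.20 with its brightest probe (limma adjusted p = 0.00271), while its other probe was not well above background after OGD. *Klkb1* turned to 0.47 with normexp background correction (limma adjusted p = 0.00553, in a range from 8.75e-05 to 0.0325 over all alternatives) and was at −2.48 with spike-in scaling. The *St14* call was lost without either untreated array and with the 75th percentile over detected probes.

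On the side of coagulation, 8 of 13 genes of the cascade were tested, of which *F9* (0.88) and *F13a1* (0.81) were higher, though at −0.41 and −0.48 with spike-in scaling, and *Vwf*, encoding the von Willebrand factor of endothelial cells, was lower, at −1.16 with its brightest probe and −0.14 with the other. The brightest *Vwf* probe was at −0.17 with normexp, where its call was lost, as with the methods' t-test, and at −2.45 with spike-in scaling. *F5*, the cofactor of factor Xa, was at 0.61 with its brighter probe (95% confidence interval −0.39 to 1.62) and at 1.54 with the other (limma adjusted p = 0.00110), and the brighter probe was at −0.67 with spike-in scaling. Its value was 0.15 without OGD replicate 1 and 1.08, then past the limit, without OGD replicate 2. Of the 8 anticoagulant genes 7 were tested and 6 were higher, where 37.1% of all genes were higher. With spike-in scaling 0 of the 7 were higher and 5 lower, where 81.9% of all probes were lower. *Tfpi*, which encodes the inhibitor of tissue factor and factor VIIa, was at 1.25 with its brightest probe and at 1.12 and 0.85 with the others, *Pros1*, encoding protein S, at 1.01, and *Procr*, the endothelial protein C receptor, at 0.65. With spike-in scaling *Tfpi* was at −0.041, *Pros1* at −0.27 and *Procr* at −0.63. The calls of *Tfpi* and *Procr* were lost with the methods' t-test and without untreated replicate 2, that of *Tfpi* also without untreated replicate 1. Of the 4 thrombin and protease-activated receptors both that could be tested were higher. *F2r*, the main thrombin receptor, was at 1.06 and *F2rl1*, which is cut by trypsin-like proteases, at 1.72. These became −0.23 and 0.43 with spike-in scaling, and *F2r* came to 0.27 with quantile normalization. All 3 genes of the vitamin K cycle were higher by less than 2-fold, and all 3 were lower with spike-in scaling. Of these, *Ggcx* lost its call in several alternatives and *Vkorc1* came to 0.083 with quantile normalization.

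**Figure D4:**
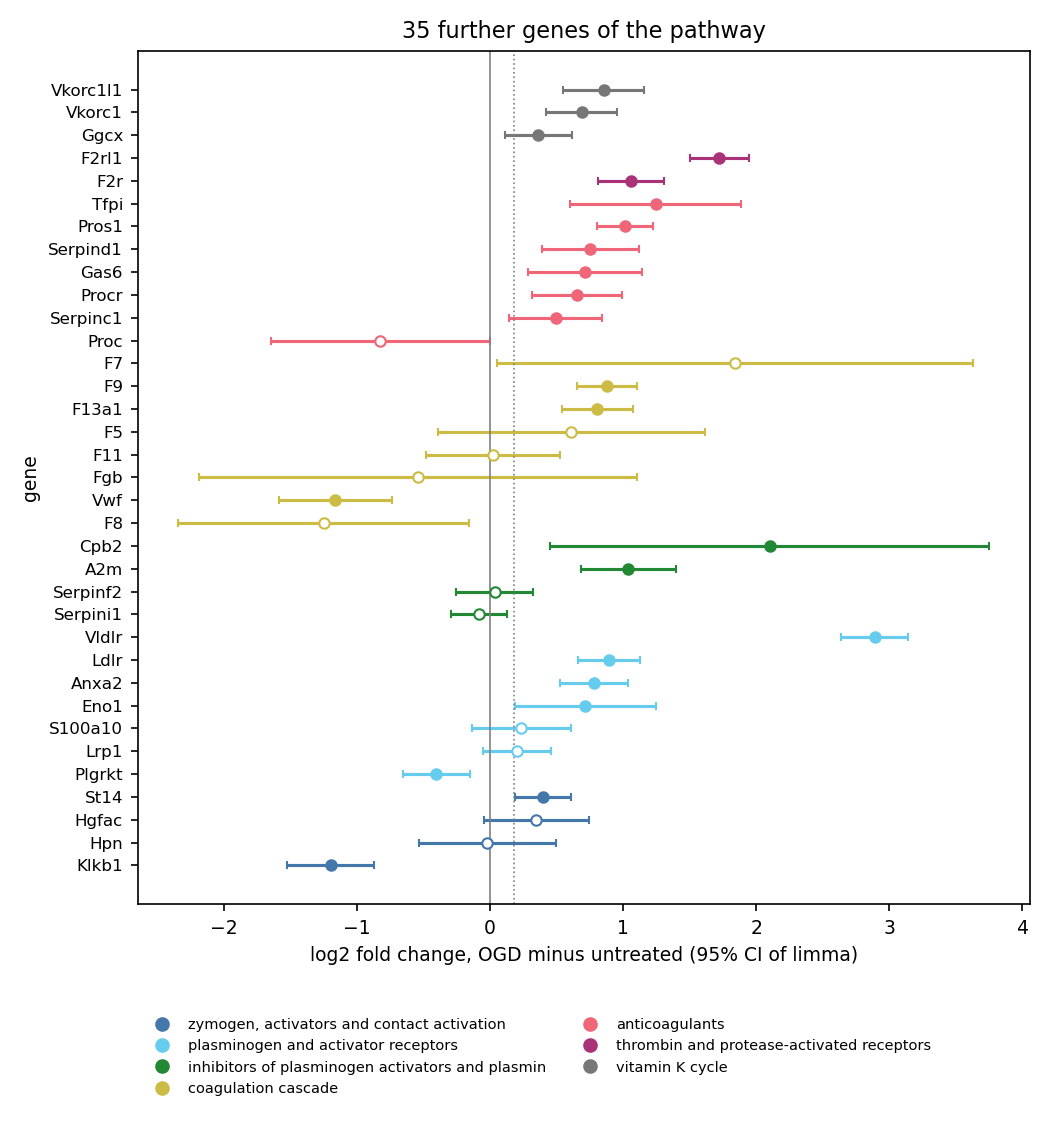
Log2 fold change (OGD minus untreated) with the 95% confidence interval of limma for the 35 further genes that were tested, each with its brightest probe and colored by role, filled where the adjusted p passed. The solid line marks no change and the dotted line the median of all probes. Vldlr lies furthest to the right, at 2.89, while Klkb1 and Vwf are the filled points below −1, of which Klkb1 turned to 0.47 with normexp.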

How the data were processed

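Each of the 4 samples was read on 1 single-color array. The authors extracted total RNA, amplified and Cy3-labeled it, and processed the scans with Feature Extraction (11.5.1.1 in the file headers and the submitters' processing notes). They deposited the processed signal, an intensity per spot with additive spatial and multiplicative trends removed within each array, without subtraction of a local background and not normalized between arrays, together with flags of other kinds (well above background, outlier, saturated). Their series table holds the same intensity values (largest difference 0). Probe positions are on mm9 per the file headers.

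Log2 of the intensity was taken, control and outlier spots were left out, spots of a probe were averaged, and each array's 75th percentile was subtracted, as in the methods. The 28254 probes well above background (at least a fraction of 0.5 of the spots) on each array of 1 or both groups entered a linear model with moderated variances (limma 3.58.1, R 4.3.3), and p-values were Benjamini–Hochberg adjusted over these probes. The study's methods state an unpaired t-test, which was run as an alternative and is called the methods' t-test here, because limma borrows information on the spread where groups hold 2 arrays. A gene is represented by its brightest probe. For arrays the number of samples, 2 per group, limits the precision. Only the limma fit was tested on simulated data, drawn around normalized values with a common SD. The filter, the removal of outlier spots, the averaging and the scaling were not tested in this way. Python 3.11.15 with pandas 2.3.3 and scipy 1.17.1 served for tables, and matplotlib 3.10.9 for plots.

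The members, the wider list, the markers and the alternatives were chosen with earlier results of these data known. Named from the wider list were all genes with a probe past the adjusted p and over 2-fold (12 genes, 3 of them only with a probe other than the brightest), and *Plg*, *Serpini1*, *F2r*, *Tfpi* and *Procr* in any case. A further gene of the wider list is not reported here and is left out of its counts. *Plgrkt*, *St14*, *F9*, *F13a1*, *Ggcx*, *Vkorc1*, *Anxa2* and *Eno1* were added after their values were seen. For the member with the largest increase the 5 most similar probes of other named genes were listed. No member was lower on the 75th-percentile scale, so that no such list was made for a decrease. Promoter sequences are from RefSeq on GRCm38.p6, and the motifs were chosen after the changes were known.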

Additional observations from a re-analysis of the deposited data

How the results depend on the processing

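Alternatives covered the test (the methods' t-test, a robust limma prior that follows intensity, a block for the replicate number), the scaling (quantile, median, spike-ins, normexp, or a 75th percentile taken only over detected probes), the filter (none, or detection on all 4 arrays), outlier spots kept, the series table, each array left out, and the mean over a gene's probes. *Plaur*, *Serpinb2* and the second *F3* probe kept direction and call in each of these that was run for them (the mean over probes replaces the second *F3* probe). Spike-in scaling gave −0.45 for *Plat*, −0.33 for *Plau* and −0.42 for *Serpine2*, opposite to the 75th percentile, and 0.34 for *F3* and 0.23 for *Thbd*, no longer past the adjusted p. It left 5 member probes past the adjusted p and 2 also over 2-fold. By its construction it lowers all log2 fold changes alike, so differences between members are the same. With the methods' t-test *Plau*, at 0.96, did not pass, and 13 of the further genes did, against 23. Leaving out 1 array at a time gave 0.73 to 1.19 for *Plau*, 0.72 to 0.96 for *Plat*, 6 to 8 member probes and 14 to 24 further genes past the adjusted p. Over all probes, 10757 to 19148 then passed, against 18354, the lower numbers being those without an untreated array (11556 without untreated replicate 1, 10757 without untreated replicate 2). Also over 2-fold were 16159 probes with spike-in scaling and 13017 with no filter, against 8108. Over 10-fold there were 106 with normexp, 1227 with spike-in scaling and 240 with the stricter filter, against 377.

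Samples with the same number in both groups did not deviate together (correlation of deviations −0.057), so the numbers are not taken as pairs. With the replicate block all 8 member probes passed, 5 of them over 2-fold, with an adjusted p between 0.00634 and 0.0271 in limma, and 21 further genes and 17198 of all probes passed.

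Every member probe was detected above background throughout. The dim *Plau* probe had the widest spread after OGD (SD 0.32, n = 2).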
